A study of Mus musculus with 5 samples.

Results

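Umod and Egf are 2 genes of the distal nephron, taken from the 24563 genes that could be named on 5 mouse microarrays. They were picked by gene symbol for how they behave over kidney age and in kidney bud transplants, so the values that chose them are the values described here, and no test is made on them. The arrays measured C57BL/6 mouse tissue in 5 groups, with 1 array in each: tissue 2 weeks after kidney bud transplantation, tissue 4 weeks after it, and whole kidney at the embryonic stage E13.5, at birth (P0) and at 8 weeks of age. For the cellular make-up of the buds, the graft site, the recipients and the number of animals behind each RNA, the labels hold no detail. With no replicate in any group, each difference below describes single arrays and has no replicate check. The RNA came from whole tissue, so fewer cells of a type and less RNA per cell cannot be told apart.

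Umod encodes uromodulin (Tamm-Horsfall protein), which the cells of the thick ascending limb of the loop of Henle anchor to their luminal membrane and release into the urine after cleavage by the protease hepsin. It is the most abundant protein of normal urine, and its zona pellucida domain lets it form filaments. Egf encodes the epidermal growth factor precursor, a membrane protein of the thick ascending limb and, in the mouse, chiefly of the distal convoluted tubule. The growth factor cut from it binds the receptor EGFR and promotes magnesium uptake through the channel TRPM6.

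The stretches just before each gene's start are shown because factors that regulate nephron genes, among them ESRRB and TFAP2B, are described with the results. Umod lies on chromosome 7 and Egf on chromosome 3, both on the minus strand. The sequences are from RefSeq (GRCm38.p6), each covering the 250 bases before the outermost annotated start, at chr7:119479263-119479512 for Umod and chr3:129755323-129755572 for Egf, written 5′ to 3′ on the gene's strand. No base is in capitals, since none of the motifs searched stood in either.
Umod: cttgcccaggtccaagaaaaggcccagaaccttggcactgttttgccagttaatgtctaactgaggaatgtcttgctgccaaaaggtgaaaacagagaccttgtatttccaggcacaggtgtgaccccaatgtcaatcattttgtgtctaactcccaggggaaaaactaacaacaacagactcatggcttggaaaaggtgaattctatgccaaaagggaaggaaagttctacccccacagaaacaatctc
Egf: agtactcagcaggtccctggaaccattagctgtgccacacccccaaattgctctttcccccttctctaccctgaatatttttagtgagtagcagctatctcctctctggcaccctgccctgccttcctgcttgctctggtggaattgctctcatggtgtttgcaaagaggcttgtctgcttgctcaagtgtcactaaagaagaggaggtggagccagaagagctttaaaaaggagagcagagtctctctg
The Umod stretch held 45.2% G and C and the Egf stretch 50.4%. The motifs searched, on both strands, were the estrogen-related receptor core AAGGTCA (in 4.08% of 32851 promoters of the same length), the TATA box TATAAA (12.4%), the octamer ATGCAAAT (1.60%) and the AP-2 palindrome GCCNNNGGC (13.7%). A second annotated Egf start gave no match either. The absence of a match says only that those letters are not in that window.

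The 5 arrays were alike in quality measures, with 60.9% to 69.1% of gene spots well above background and 75th percentiles of 1170.2 to 1720.1 intensity units. Slide 1 held the 2-week transplant with the E13.5 kidney, and slide 2 held the 4-week transplant with the P0 and 8-week kidneys. Slide and group cannot be told apart in comparisons across slides. The transplants carried signal of other tissues. Summed intensities of 6 adipocyte markers, as multiples of the array's 75th percentile, were 193 in the 2-week and 482 in the 4-week transplant, against 1.62 to 32.7 in the kidneys. Those of 6 adrenal cortex markers were 0.215 in the 2-week and 204 in the 4-week transplant, against 0.285 to 0.363 in the kidneys. Macrophage markers summed to 55.9 in the 2-week and 37.5 in the 4-week transplant, against 3.60 to 14.9 in the kidneys. The sums of 7 kidney injury genes, such as Lcn2 and Timp1, were 113 in the 2-week and 138 in the 4-week transplant. Those in the kidneys were 8.16 to 32.4, and the median differences from P0 were 1.66 and 2.10 (log2). In the 2-week transplant 4 of 7 were at least 2-fold above P0 (15.4% of all genes), and in the 4-week transplant 6 (19.2%). Havcr1 was not among them, at 42.2 and 33.8 in the transplants, against 39.2 at P0 and 2087 at 8 weeks. Kidney epithelium genes were lower by a median of -1.14 (log2) in the 2-week and -0.79 in the 4-week transplant than in the P0 kidney. Sex also differed between arrays, since X-linked Xist was not well above background in the 8-week kidney nor Y-linked Ddx3y in the P0 kidney. The part of sex, injury genes and these tissues in any result below was not tested. In the mouse the submandibular gland also makes much Egf. Of 6 salivary markers, 0 were well above background in the 2-week transplant and 1 in the 4-week transplant, against 0 to 2 in the kidneys.

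Umod was already high at birth and higher again in the adult, whereas Egf was still at its low embryonic level at birth and high in the adult kidney. The single Umod spot read 60.7 in the E13.5 kidney, 13453 in the P0 kidney and 181587 in the 8-week kidney (processed intensity). The embryonic value was low enough that 3 of 153 negative control spots reached it. Relative to each array's 75th percentile the 3 values correspond to log2 levels of -4.74, 2.97 and 7.28. Umod thus climbed in both intervals, by 7.71 log2 units (209-fold) between E13.5 and P0 and by 4.31 (19.8-fold) between P0 and 8 weeks.

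The Egf probe is printed on 10 spots of each array, and all 10 were well above background on all 5 arrays. They read 38.3 to 63.6 (median 55.2) in the E13.5 kidney, 45.8 to 60.6 (median 51.3) in the P0 kidney and 27550 to 30337 (median 28892) in the 8-week kidney. The spot ranges of E13.5 and P0 overlapped, and the adult spots lay far above both. On the log2 scale P0 minus E13.5 was -0.13, less than the SD of 0.210 between the E13.5 spots. That SD describes single spots and not their mean. The 8-week kidney stood 9.68 log2 units (818-fold) above the P0 kidney. Replicate spots share 1 labelled RNA, so their spread covers spot error and neither labelling nor animals.

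The 2 genes therefore differed in when they rose. The Umod change exceeded the Egf change by 7.84 log2 units (229-fold) between E13.5 and P0. Between P0 and 8 weeks the Umod change was the smaller one, with a difference of -5.37 log2 units (41.3-fold). Array scaling cancels in these differences between genes. Over the whole interval the 2 genes came within 2.47 log2 units of each other, with 12.02 (4140.4-fold) for Umod and 9.54 (746-fold) for Egf.

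**Figure D1:**
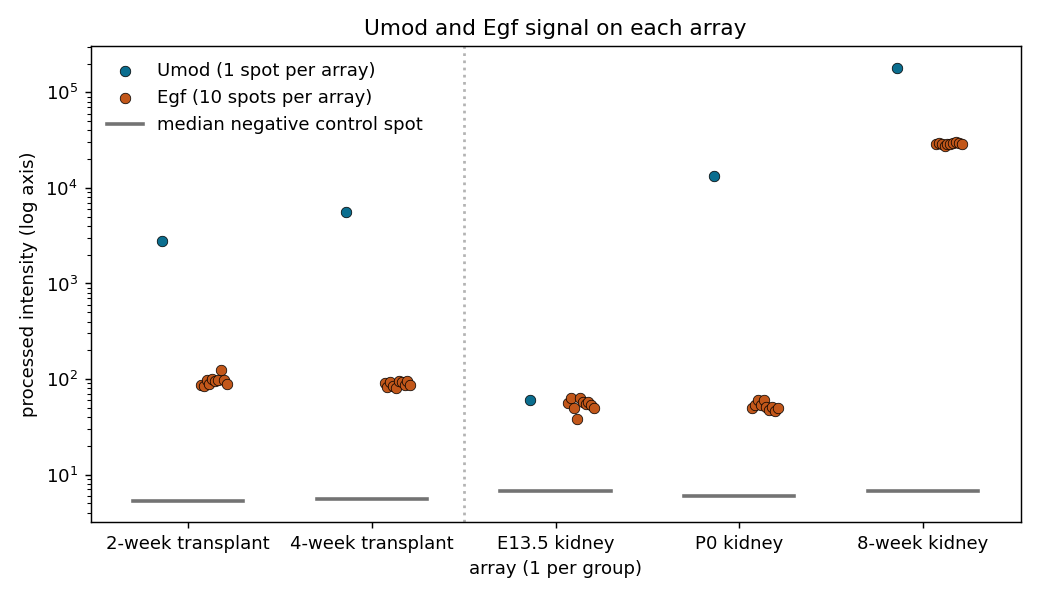
Processed intensity (log axis) of Umod (1 spot per array) and Egf (10 spots per array) in the 2 transplants and the 3 kidney ages, with grey lines at the median negative control spot. Umod is high in the P0 kidney and in both transplants, whereas the Egf spots of those arrays lie between 45.8 and 124 and only the 8-week kidney reaches 27550 or more.

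Few of the genes well above background in all 3 kidneys shared either time course. Of 14340 genes well above background in all 3 kidneys, 48 (0.335%) were within 2-fold between P0 and E13.5 and then at least 16-fold higher at 8 weeks. Egf ranked 1st among these by its second step. Umod belonged to 68 genes (0.474%) that rose at least 8-fold in each interval. Among all genes compared, Umod ranked 29th of 17572 for P0 over E13.5 and 258th of 17658 for 8 weeks over P0, where Egf ranked 10th. These thresholds were set with the values of both genes known. Genes not well above background before 8 weeks, such as Tmem207 described below, could not enter the counts of 48 and 68.

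In the transplants Umod reached a level between E13.5 and P0 on the log2 scale, while Egf remained within 2-fold of the E13.5 and P0 kidneys. Umod read 2801 in the 2-week and 5632 in the 4-week transplant, against 60.7 at E13.5, 13453 at P0 and 181587 at 8 weeks. Its order was 8-week kidney, P0 kidney, 4-week transplant, 2-week transplant and E13.5 kidney, and the closest neighbours, the 4-week transplant and the P0 kidney, were 1.06 log2 units apart. The scanner software gave the spot an error of at most 17.1% of its value (at E13.5), below every gap in that order. This error leaves out labelling and animals.

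Scaled to the 75th percentile, Umod in the 2-week transplant was 43.6-fold above E13.5 (5.45 log2 units), 4.78-fold below P0 (-2.26) and 94.9-fold below the 8-week kidney (-6.57). In the 4-week transplant it was 99.9-fold above E13.5 (6.64), 2.09-fold below P0 (-1.06) and 41.4-fold below the 8-week kidney (-5.37). The 4-week transplant thus carried 47.9% of the P0 level and 2.41% of the adult level, and the 2-week transplant 20.9% and 1.05%. Values over E13.5 depended on the processing. Over the 7 alternatives Umod over E13.5 ran between 1.53 and 5.69 log2 units in the 2-week transplant, between 2.65 and 6.84 in the 4-week transplant and between 3.76 and 7.82 at P0, lowest each time with normexp correction at an offset of 50. As shares of the log2 rise between E13.5 and 8 weeks, the 2-week transplant had covered 45.3%, the 4-week transplant 55.3% and the P0 kidney 64.1%. With that correction the shares were 19.0%, 33.0% and 46.9%, in the same order. The comparisons of the 4-week transplant with the P0 and 8-week kidneys, and of the 2-week transplant with E13.5, lie within 1 slide.

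Egf spots read 85.1 to 124 (median 96.3) in the 2-week transplant and 80.6 to 95.9 (median 89.0) in the 4-week transplant. The 2 transplants overlapped, and their lowest spot lay above the highest spot of the E13.5 (63.6) and P0 (60.6) kidneys. Scaled, the 2-week transplant was 0.74 log2 units (1.68-fold) above E13.5 and 0.88 (1.84-fold) above P0, and the 4-week transplant 0.82 (1.77-fold) and 0.96 (1.94-fold). Such differences are common on these arrays, since 82.8% of genes lay below the Egf value for the 2-week transplant over P0 and 80.2% for the 4-week transplant over P0. The sign against E13.5 did not hold under every processing. It was negative for both transplants after background correction with an offset of 50 (-2.19 and -2.12) and after scaling to kidney epithelium genes (-0.11 and -0.40). Against P0 it stayed positive under all 7 alternatives, between 0.43 and 1.63.

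Against the adult kidney, Egf fell short by 445-fold in the 2-week transplant (-8.80 log2 units) and by 421-fold in the 4-week transplant (-8.72). That is 0.225% and 0.237% of the adult level. The order of its scaled levels was 8-week kidney, 4-week transplant, 2-week transplant, E13.5 kidney and P0 kidney. The transplants were 0.08 log2 units apart, less than the SD of 0.156 between single spots at 2 weeks, and the spot ranges of E13.5 and P0 overlapped. Low as they were, the Egf levels of the transplants were 17.9 and 15.8 times the median of the 153 negative control spots (2 and 4 weeks), and 1 of these spots reached the Egf level on each array. In the kidneys before adulthood, 4 negative controls reached it at E13.5 and 0 at P0.

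The gap between the genes in the transplants is free of scaling. In the 2-week transplant over E13.5 the Umod change exceeded the Egf change by 4.70 log2 units (26.0-fold), and in the 4-week transplant by 5.82 (56.4-fold). Relative to P0, the Umod change lay below the Egf change, with differences of -3.14 log2 units at 2 weeks and -2.02 at 4 weeks. Between 4 and 2 weeks after transplantation, Umod was 1.20 log2 units (2.29-fold) higher and Egf 0.08. A difference of at least 2-fold higher between these 2 arrays was shared by 9.10% of genes, and 93.1% of genes lay below Umod.

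The transport genes of the thick ascending limb were then set beside Umod, as 12 genes chosen with earlier results of these data known. Most were raised by birth, as Umod was. Of 11 measured, 8 were at least 4-fold higher in the P0 than in the E13.5 kidney (median 3.97 log2 units), against 6.24% of all genes at that size. Slc12a1 and Kcnj1 were not well above background at E13.5. Slc12a1, the sodium-potassium-chloride cotransporter of this segment, read 249 in the 2-week and 69.5 in the 4-week transplant, against 6.53 at E13.5, 677 at P0 and 2260 at 8 weeks. Kcnj1, the potassium channel ROMK, read 5124 and 2098 in the transplants, against 5.53 at E13.5, 5098 at P0 and 22699 at 8 weeks. Both were thus present in the grafts, Kcnj1 at its P0 level at 2 weeks.

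In the adult, 6 of 12 genes were at least 4-fold above P0 (8.93% of all genes), with a median of 2.04, below the 4.31 of Umod. Tmem207, a small membrane protein gene, behaved more like Egf. It was not well above background in the transplants (5.85 and 6.09) or at E13.5 (7.61) and P0 (13.0), and read 376 at 8 weeks, at least 20.8-fold above P0. Ppp1r1a, an inhibitor of protein phosphatase 1, was 1.72-fold above E13.5 at P0 and then 8.71-fold higher at 8 weeks.

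Relative to P0, Umod lay further down than the list median in the 2-week transplant (-2.26) and less far in the 4-week transplant (-1.06). In the 2-week transplant 6 of 11 genes were at least 2-fold below P0 (11.8% of all genes), with a median of -1.13. In the 4-week transplant 7 of 11 were (13.9% of all genes), with a median of -1.61. Slc12a1 was 2.71-fold below P0 at 2 weeks and 8.52-fold at 4 weeks. Cldn19, a tight junction gene of this segment, was 3.38-fold and 8.87-fold below.

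Umod moved the other way from most of these genes between the 2 graft times. The list median for the 4-week minus the 2-week transplant was -0.86 log2 units, with 7 of 11 genes below 0, 4 at least 2-fold lower (5.68% of all genes) and 2 at least 2-fold higher. Over the alternatives 3 to 6 genes were at least 2-fold lower, whereas the 2 higher calls were lost or fell to 1 under all but quantile normalization. Slc12a1 was 3.14-fold lower, Cldn19 2.62-fold lower, Bsnd (barttin) 2.19-fold lower and Kcnj1 2.14-fold lower. The 2 genes that were higher were Tmem72 (2.05-fold) and Ptger3 (2.03-fold), a prostaglandin E receptor that fat cells also express. Umod, at 2.29-fold higher, lay above all 11. It did so under all 7 alternatives as well, with values of 0.83 to 1.21 for Umod and -1.23 to -0.62 for the list median. No scaling, the percentile over detected probes, the authors' table and the epithelium scaling shift whole arrays, so they could not change this place. In the alternatives that could, Umod lay 1.74 to 2.16 log2 units above the list median. The 2 arrays were on different slides, and adipocyte and adrenal cortex signal was higher in the 4-week transplant, as given above. The part of slide or of these tissues in the differences, that of Ptger3 included, was not tested.

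**Figure D2:**
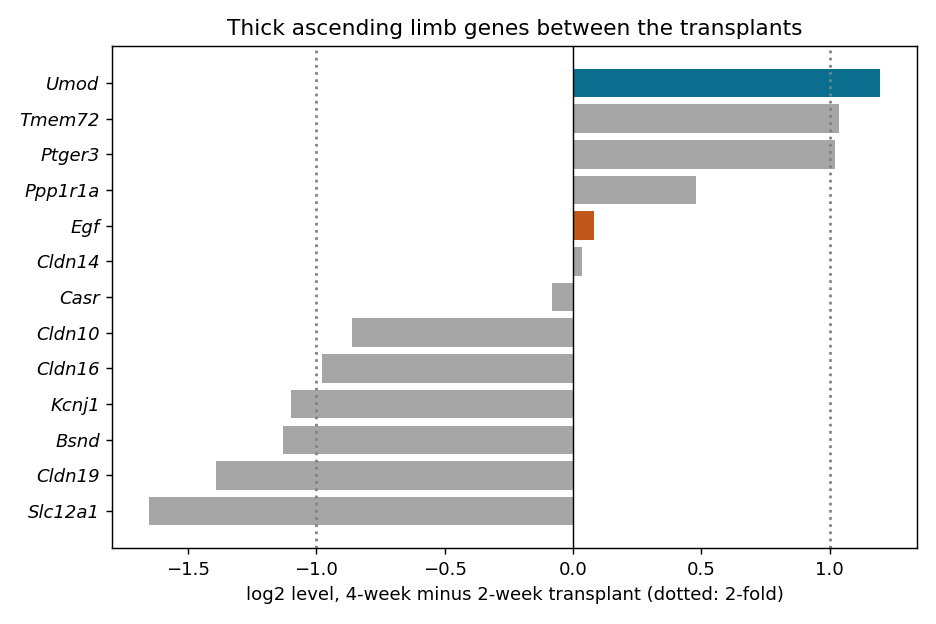
Intensity in the 4-week over the 2-week transplant (log2 difference, scaled to the 75th percentile) for Umod, Egf and the thick ascending limb genes measured. Umod lies at 1.20, above all 11 list genes, whose median is -0.86, and Egf lies at 0.08.

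The share of the log2 rise between E13.5 and 8 weeks could be measured for 6 of these genes. It had a median of 50.3% in the 2-week transplant, 49.2% in the 4-week transplant and 73.1% in the P0 kidney, where Umod had 45.3%, 55.3% and 64.1% and Egf 7.81%, 8.64% and -1.40%. At 2 weeks 2 of the 6 lay below Umod and at 4 weeks 4 did, and 0 lay below Egf at any of these stages. Another 5 genes, among them Slc12a1 and Kcnj1, were not well above background at E13.5, so their shares start from a bound and are drawn without being ranked. Cldn14, a claudin that rose less than 4-fold over that interval (1.18 log2 units), was left out.

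**Figure D3:**
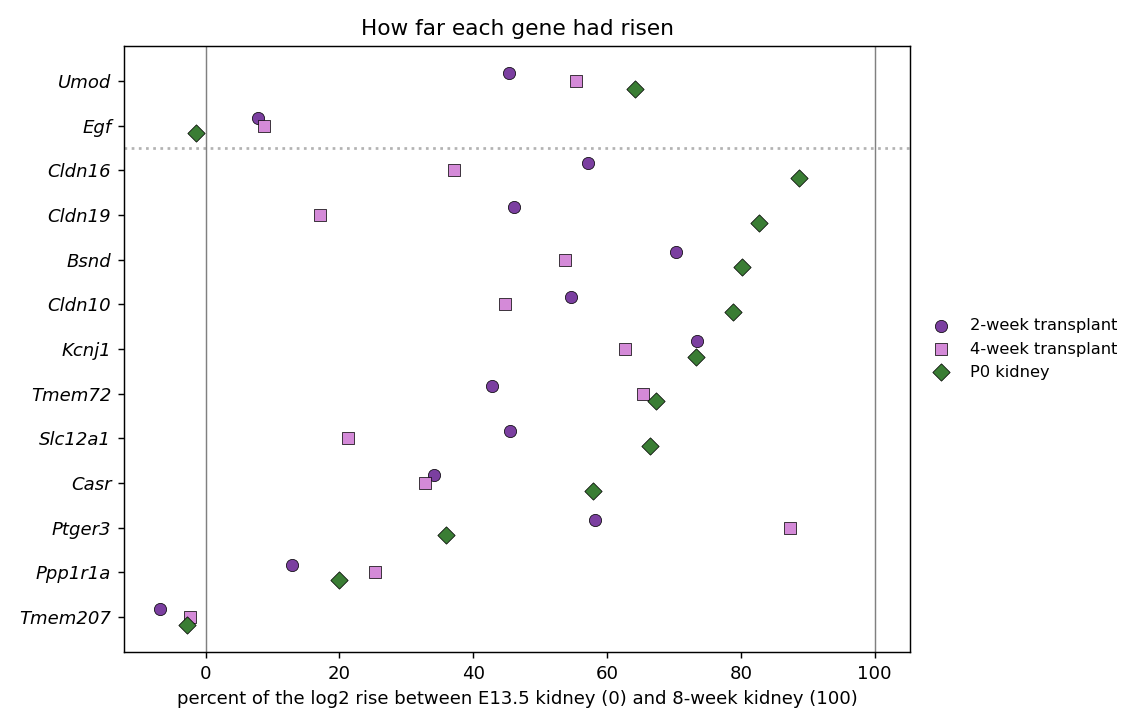
Percent of each gene's log2 rise between the E13.5 kidney (0) and the 8-week kidney (100) covered in the 2-week transplant, the 4-week transplant and the P0 kidney. A gene not well above background enters at the lowest measurable level unless its own value was higher, Umod covers 45.3%, 55.3% and 64.1%, and Egf stays between -1.40% and 8.64%.

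Transcription factors of the loop and distal tubule gained less over E13.5 in the grafts than Umod did. Their medians were 1.03 log2 units at 2 weeks and 0.12 at 4 weeks, against 5.45 and 6.64 for Umod. Their rise between E13.5 and 8 weeks was also smaller, with a median of 4.33 against 12.02. Among factors that rose at least 4-fold, Esrrg covered 44.4% and 50.7% of its log2 rise at 2 and 4 weeks, near the 45.3% and 55.3% of Umod. The next highest shares were 37.4% and 34.5% (Irx2, by the probe used). Of 9 listed, 8 were measured and Sall3 was not well above background on any array. At P0, 5 of 8 were at least 4-fold above E13.5 (6.24% of all genes). In the 2-week transplant 7 of 8 were at least 2-fold below P0 (median -1.59, 11.8% of all genes). In the 4-week transplant 8 of 8 were (median -2.41, 13.9% of all genes). These counts rest on the probe used for each gene. The other Irx2 probe was 0.59 log2 units above P0 at 4 weeks and not well above background at 2 weeks. Irx1, a homeobox gene of the developing nephron, read 1054 in the 2-week and 589 in the 4-week transplant, against 360 at E13.5, 13499 at P0 and 10066 at 8 weeks. Esrrb, an orphan nuclear receptor, read 83.7 and 104 in the transplants, against 99.3 at E13.5, 1886 at P0 and 3091 at 8 weeks. Its graft values were close to the embryonic one. Tfap2b, a factor needed for distal tubule development, was an exception at 2 weeks, where it was within 2-fold of P0 (-0.05), and was 2.43-fold below P0 at 4 weeks.

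Among genes that handle uromodulin, Hpn, the gene for hepsin, read 4070 in the 2-week and 2405 in the 4-week transplant, against 1575 at E13.5, 17078 at P0 and 90206 at 8 weeks. It was 4.18-fold and 6.21-fold below P0, and 1.49-fold lower at 4 than at 2 weeks, while Umod was 2.29-fold higher. Prss8, the serine protease prostasin, was 3.31-fold and 3.99-fold below P0. Hspa5, the chaperone BiP, and Sec61a1 and Dnajb11, other genes of protein entry and folding in the endoplasmic reticulum, were within 1.5-fold of P0 in both transplants. Of the 9 other zona pellucida domain genes, 4 (Umodl1, Tecta, Cuzd1 and Dmbt1) were not well above background on any array. Gp2, the closest relative of Umod, was 12.1-fold and Zpld1 15.6-fold higher at 8 weeks than at P0. Both were low in the 2-week transplant, at 36.2 and 29.8, and not well above background in the 4-week transplant.

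The distal convoluted tubule, the other source of Egf, was read through 16 genes. In the adult 9 of 15 measured were at least 2-fold above P0 (23.6% of all genes). Slc12a3, the thiazide-sensitive sodium chloride cotransporter that defines this segment, read 280 in the 2-week and 65.3 in the 4-week transplant, against 19.9 at E13.5 (not well above background), 379 at P0 and 1720 at 8 weeks. It was therefore present at birth and in the 2-week graft, where Egf was at its low level. As a group the 16 genes did not move one way in the grafts. In the 2-week transplant 4 were at least 2-fold above P0 (15.4% of all genes) and 3 at least 2-fold below (11.8%), with a median of -0.34. In the 4-week transplant 4 were above (19.2%) and 7 below (13.9%), with a median of -0.64. Pvalb, a calcium-binding protein of the early part of the segment, was 7.27-fold below P0 at 2 weeks and 8.06-fold at 4 weeks. Calb1, a calcium-binding protein of its later part, was 6.21-fold and 44.8-fold below (-2.63 and -5.49 log2 units). The other Calb1 probe gave -2.74 and -3.49 log2 units. Kcna1, a voltage-gated potassium channel, was at least 14.4-fold and 17.8-fold above P0, and Slc41a3, of a magnesium transporter family, 3.55-fold and 3.78-fold above. Kcna1 read 383 and 414 in the transplants and 123 at E13.5, against 10.9 at P0 and 7.05 at 8 weeks. Neither the newborn nor the adult reading cleared background, so Kcna1 had no measured signal in the adult kidney. Whether its graft signal came from this segment was not tested. Kcnj16, a basolateral potassium channel subunit, came nearest to Egf in the adult step, at 17.1-fold over P0, but was also 12.1-fold above E13.5 at birth.

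Trpm6, the magnesium channel that EGF activates, was higher in the grafts than in the newborn kidney. It read 657 in the 2-week and 273 in the 4-week transplant, against 76.4 at E13.5, 117 at P0 and 348 at 8 weeks. Relative to P0 it was 5.65-fold and 2.68-fold higher in the transplants, and 4.38-fold higher at 8 weeks. The macula densa, the cell group at the end of the thick ascending limb, was represented by 4 genes. In each transplant 0 were at least 2-fold below P0 (11.8% and 13.9% of all genes at 2 and 4 weeks). In each, 2 were at least 2-fold above P0 (15.4% and 19.2% of all genes). These 2 were Ptgs2, the prostaglandin synthase COX-2, at 2.11-fold and 3.78-fold, and Avpr1a, a vasopressin receptor, at 2.26-fold and 2.06-fold. Nos1, the neuronal nitric oxide synthase, was instead within 2-fold below P0, at 44.3 and 50.7 in the transplants, against 52.7 at E13.5, 88.7 at P0 and 92.0 at 8 weeks. Pappa2, a protease gene of these cells, read 1998 and 984 in the transplants, against 71.0 at E13.5, 1335 at P0 and 98.3 at 8 weeks. Pappa2 was high in the newborn kidney and the grafts and low in the adult, unlike Egf. Its other probe was not well above background on any array.

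Of 10 other ligands of the EGF family, 7 could be compared between the 8-week and the P0 kidney, and 2 were at least 4-fold higher (8.93% of all genes). These were Nrg1, a neuregulin (4.83-fold), and Nrg4 (at least 11.4-fold), against 818-fold for Egf. Btc, betacellulin, read 67.4 and 73.3 in the transplants, against 31.8 at E13.5, 427 at P0 and 101 at 8 weeks, a peak at birth. Hbegf, the heparin-binding ligand, read 1333 and 594 in the transplants, against 680 at E13.5, 2151 at P0 and 1884 at 8 weeks. Epgn, epigen, was 5.84-fold and Nrg4 4.49-fold higher in the 4-week than in the 2-week transplant. Nrg4 is known to be secreted by fat, and the adipocyte markers were also higher in the 4-week transplant. The part of fat in the Nrg4 signal was not tested. Another of the 3 Nrg4 probes read 22.0 at E13.5, where the probe used read 523, so its embryonic level is uncertain.

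Of the receptors, Egfr, Erbb2 and Erbb4 were well above background on all 5 arrays, and Erbb3 in the P0 and 8-week kidneys alone. Egfr read 4593 in the 2-week and 2195 in the 4-week transplant, against 1246 at E13.5, 1090 at P0 and 1796 at 8 weeks. It was 4.23-fold and 2.30-fold above P0, and the 2 other Egfr probes also read higher in both transplants than at P0. Erbb4, a receptor for neuregulins and betacellulin, read 236 and 291 in the transplants, against 51.8 at E13.5, 805 at P0 and 621 at 8 weeks. Errfi1, a feedback inhibitor of EGFR, read 10108 and 27279 in the transplants, against 6584 at E13.5, 14544 at P0 and 63139 at 8 weeks. The adult kidney thus had the highest Egf and the highest Errfi1, and the 2-week transplant the highest Trpm6 after scaling. It also had the highest Egfr by the probe used, whereas the 2 other Egfr probes were highest in the adult kidney after scaling.

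**Figure D4:**
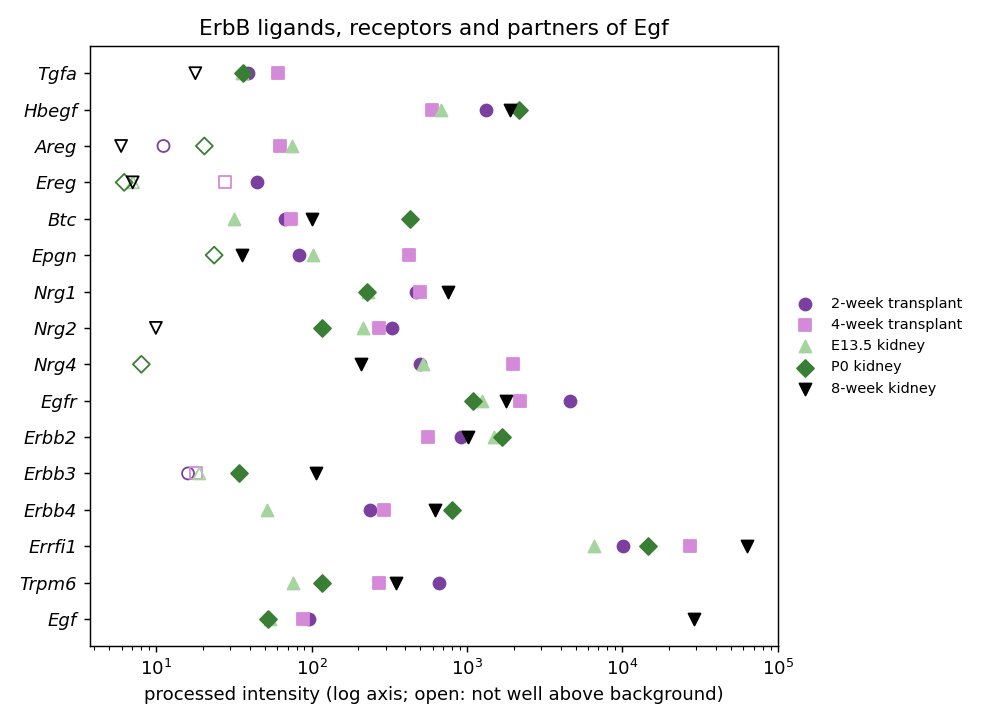
Processed intensity (log axis) of Egf, other EGF family ligands, their receptors, Errfi1 and Trpm6 on the 5 arrays, with open symbols where a probe was not well above background. Values compare within a gene only, and Egf alone shows a gap of more than 100-fold between the 8-week kidney and every other array.

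The genes most like each in pattern were sought among 12872 genes well above background on all 5 arrays, by the root mean square difference of the 5 log2 values after centring each gene. For Umod the nearest were Napsa (0.41 log2 units), the gene of the aspartic protease napsin A, then Slc27a2 (0.72), a fatty acid transporter, Pipox (0.75), a peroxisomal oxidase, Sgk2 (0.88), a kinase, and Nat8 (0.92), an acetyltransferase. Napsa read 1881 in the 2-week and 2379 in the 4-week transplant, against 58.0 at E13.5, 11467 at P0 and 110972 at 8 weeks. It shared with Umod the order of the 5 arrays, as did Slc27a2, Pipox and Nat8, whereas Sgk2 was lower at 4 than at 2 weeks. None of the 5 came from the thick ascending limb list, although 7 of its 12 genes entered this search. The other 5, Slc12a1 and Kcnj1 among them, were not well above background at E13.5 and could not enter it.

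For Egf the nearest were Akr1c14 (0.95), a steroid dehydrogenase, Aass (0.98), an enzyme of lysine breakdown, Angptl7 (1.01), an angiopoietin-like secreted protein, Serpina1f (1.09), a serpin, and Mogat1 (1.15), a glyceride-forming acyltransferase. Akr1c14 read 219 and 254 in the transplants, against 124 at E13.5, 47.7 at P0 and 15120 at 8 weeks. Umod and Egf themselves differed by 2.71. The lists depend on the measure, since the 5 genes with the highest Pearson correlation shared 0 with these for either gene.

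**Figure D5:**
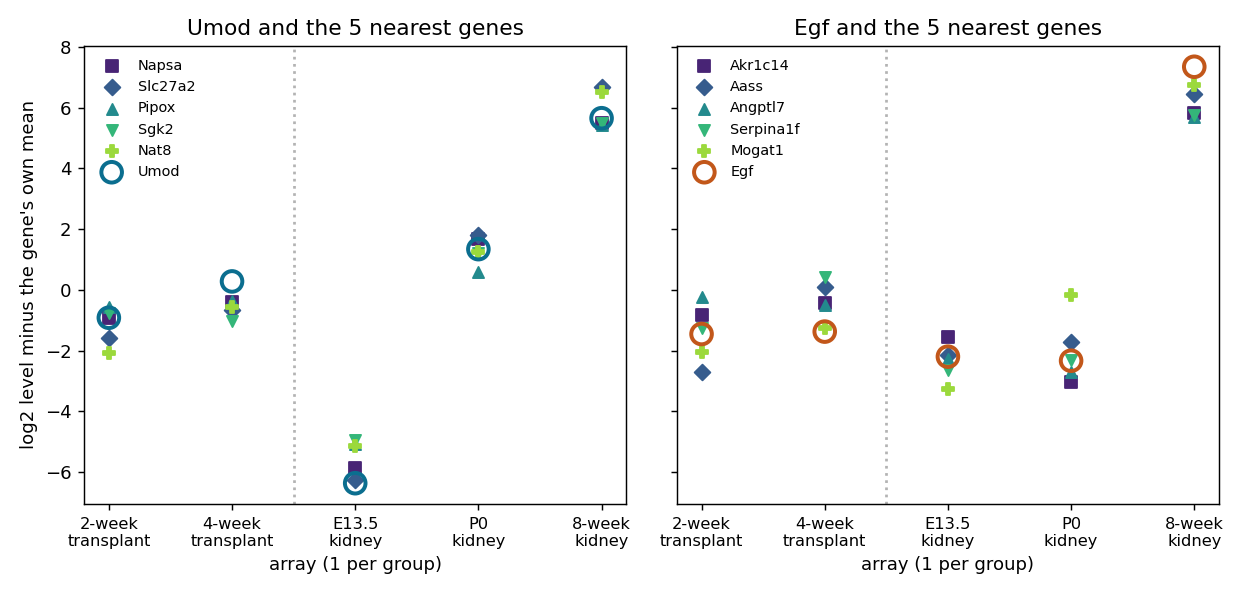
Centred log2 levels on the 5 arrays of Umod (left) and Egf (right) with the 5 genes of smallest root mean square difference. The Umod set is raised at P0 and again at 8 weeks, and the Egf set is raised mainly at 8 weeks.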

How the data were processed

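RNA was labelled with Cy3 and hybridised to 1-colour Agilent mouse arrays, per the labels' protocols. The authors deposited scanner files from Agilent Feature Extraction 10.7.3.1, per the submitters' processing notes, whose processed intensity per spot is background-subtracted, per the file headers. The deposited table of the authors holds log2 values. Of its values, 99.7% in 30170 rows matched the log2 processed signal centred on each row's median (tolerance 0.01), and 18.2% did after the 75th percentile shift its title names. The log base and the missing shift follow from this match.

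The values used here are log2 intensities from which each array's log2 75th percentile, taken over 43020 non-control spots, was subtracted. Spots called outliers were left out (447), no spot was saturated, replicate spots were averaged on the log2 scale, and the brightest probe stood for its gene. Umod and Egf have 1 probe each (A_52_P312806 and A_52_P38627). Probes were named through the authors' gene identifiers and RefSeq, and 33826 of 39414 were named. Where a probe was not well above background on 1 of 2 arrays, the fold is a lower bound ("at least"). Of 24563 genes, 19366 were well above background somewhere.

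The members, the 14 gene lists (118 genes, all matched) and the settings were chosen with earlier results of these data known. A few genes and a motif are not reported here, and the 14 lists are counted without those genes. Genes named are members of these lists and the 5 most similar to each gene. The number of arrays limits precision, and no test was possible. Computation was checked on simulated data. Alternatives were 2 normexp corrections, other scalings, the authors' table and, chosen after seeing the data, scaling to kidney epithelium genes. Python 3.11.15, R 4.3.3 and limma 3.58.1 were used.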

Additional observations from a re-analysis of the deposited data

How the results depend on the processing

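Of 210 recomputed values (30 differences of Umod, Egf or between them, under 7 alternatives), 167 lay within 1.5-fold of the reported value, 43 moved further, and 0 differences of 2-fold or more changed sign. No scaling, quantile normalization, the percentile over detected probes and the authors' table moved none. The authors' table holds the unscaled signal, so it repeats the setting without scaling. Array shifts cancel in the differences between Umod and Egf. Those could therefore not move under any alternative except quantile normalization and the 2 normexp corrections. With normexp correction (offset 50), Umod was 3.76 for P0 over E13.5, 8.02 for 8 weeks over E13.5, and 1.53 and 2.65 for the 2-week and 4-week transplants over E13.5. Egf was -2.62, 5.71, -2.19 and -2.12 in those comparisons, 8.33 for 8 weeks over P0, and -7.90 and -7.82 for the 2-week and 4-week transplants minus the adult. The Umod change minus the Egf change was 6.38 for P0 over E13.5, -4.07 for 8 weeks over P0, 3.72 and 4.76 for the transplants over E13.5, and 1.41 and 2.45 for the transplants minus the adult. That correction placed the mean background of the E13.5 array at -992, against 20.7 to 27.5 on the others. With negative controls as the background, Umod was 6.71 (P0), 10.98 (8 weeks), 4.46 and 5.59 (transplants) over E13.5. Egf was 8.47 for 8 weeks over E13.5, 8.57 over P0, and -8.10 and -7.99 for the transplants minus the adult. The differences between the genes were 6.81 for P0 over E13.5, -4.29 for 8 weeks over P0, 4.10 and 5.11 for the transplants over E13.5, and 1.58 and 2.60 for the transplants minus the adult. Scaled to kidney epithelium genes, Umod was 6.10 (P0), 10.57 (8 weeks), 4.59 and 5.42 (transplants) over E13.5, and -1.51 and -5.98 for the 2-week transplant minus P0 and minus the adult. Egf was -1.74 (P0), 8.10 (8 weeks), -0.11 and -0.40 (transplants) over E13.5, and 1.63 and -8.21 for the 2-week transplant minus P0 and minus the adult. The cause was not tested for any of these settings. The share of genes past 4-fold in each direction changed with the 2-fold and 8-fold thresholds by construction, and requiring both arrays above background moved 0 of 20. No paired analysis was possible because each group has 1 array, and for that reason no replicate could be left out. The mean over probes and each other probe were not run, since each gene has 1 probe. Single arrays carry no error for animals, labelling or slides, so small differences, such as those of Egf in the transplants, cannot be set against biological spread.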
